A study of Mus musculus with 2 samples.

Results

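The proteasome subunit genes were followed in long-read RNA sequencing of the mouse heart. They were taken as all protein-coding genes whose symbol begins with Psm, a letter from a to g and a digit, and that had a read in both libraries. This gave 49 genes of 12561 annotated genes, and of 11489 protein-coding genes, with a read in both libraries. One group of heart tissue, untreated, was sequenced from female B6CASTF1/J mice aged 2 months, as 2 biological replicates with 2 µg of total RNA each. Such mice are the F1 cross of inbred C57BL and CAST parents. The sample labels number the animals 3 and 4, but the library text names animal 3 for both and both carry the same donor identifier, so that the spread between the replicates may be technical. Replicate 1 held 859191 reads on annotated genes and replicate 2 held 707758, of which the 49 genes took 4344 reads (0.506%, Wilson 95% interval 0.491 to 0.521%) and 3568 reads (0.504%, 0.488 to 0.521%). Values in pairs below are those of replicate 1 and replicate 2, and means are given ± SD over these 2 libraries.

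The proteasome is the barrel-shaped protease that degrades proteins tagged with ubiquitin. Its 20S core is built of outer rings of alpha subunits and inner rings of beta subunits, and only 3 kinds of beta subunit cut proteins. The 19S cap binds ubiquitin, removes it, unfolds the substrate with a ring of ATPases and threads it into the core. In immune cells and after interferon, the cutting subunits are replaced by inducible partners, which form the immunoproteasome and shape the peptides shown to T cells. Other activators (PA28, PA200) can take the place of the 19S cap, and dedicated chaperones assemble core and cap. In heart muscle the proteasome takes part in the turnover of sarcomere proteins.

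Of the 49 genes, 14 encode constitutive core subunits (7 alpha, 7 beta), 3 the inducible catalytic subunits, 17 the 19S cap (6 ATPases, 11 others), 6 an activator or inhibitor and 7 assembly factors. The remaining 2 are Psma8, the alpha subunit of testis, and Psmc3ip. The last carries a matching symbol but encodes no proteasome subunit. GENCODE M21 lists 50 protein-coding genes with a matching symbol, and the other, the thymus subunit Psmb11, had 0 reads in both libraries, which allows up to 3.49 and 4.24 CPM. CPM stands for reads per 1000000 reads on annotated genes, and 1 read was worth 1.16 and 1.41 CPM. A long read stands for 1 RNA molecule, so CPM is not divided by length. Values per kilobase of the mean model length are given beside it for the class medians and the catalytic pairs. They are also given within the core, cap, activator and assembly classes, but not for every other comparison. Reads carry no molecular identifiers, so all intervals and floors here cover counting error only.

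The core and cap classes had higher median levels than the other classes. The median level was 108 ± 9.33 CPM for the alpha subunits, 120 ± 5.31 CPM for the beta subunits, 146 ± 9.81 CPM for the ATPases and 119 ± 3.62 CPM for the other cap subunits. It was 33.9 ± 10.04 CPM for the inducible subunits, 33.3 ± 5.90 CPM for activators and inhibitor and 23.98 ± 3.94 CPM for assembly factors. Counted on annotated models alone, the inducible median was 21.8 CPM, while those of the core and cap classes were from 132 to 176 CPM. All protein-coding genes with a read in both libraries had a median of 19.2 ± 0.819 CPM, and the 49 genes one of 80.6 ± 6.13 CPM. Each of the 31 core and cap subunits lay above every inducible subunit and every assembly factor in both libraries, the lowest being Psmd14 at 50.05 and 43.8 CPM. In replicate 2 the margin was narrow, with 31 reads of Psmd14 against 30 of Psmb8. Of those 30 reads 18 lay on single-exon models, and on annotated models Psmd14 had 31 reads and Psmb8 11. Activators overlapped the core and cap: Psme1 (79.1 and 76.3 CPM) and Psme2 (71.0 and 59.3 CPM) exceeded Psma4, Psmb4, Psmb7 and Psmd14 in both libraries. Per kilobase this separation was incomplete: 30 and 24 of the 31 were above the highest inducible subunit, and 19 and 27 above the highest assembly factor. That inducible subunit was Psmb8 in both libraries. Its mean model length of 882 bases, against 1628 for Psmb8-201, is shortened by the single-exon models described below, which raises its value per kilobase. The class medians per kilobase were 75.2 and 65.3 CPM for alpha, 140.1 and 126 CPM for beta, 103 and 98.8 CPM for ATPase and 73.8 and 84.4 CPM for other cap genes. Those of the inducible subunits were 24.4 and 37.3 CPM per kilobase, of activators and inhibitor 9.85 and 12.9, and of assembly factors 14.7 and 14.8, against 7.53 and 7.93 for all protein-coding genes.

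**Figure D1:**
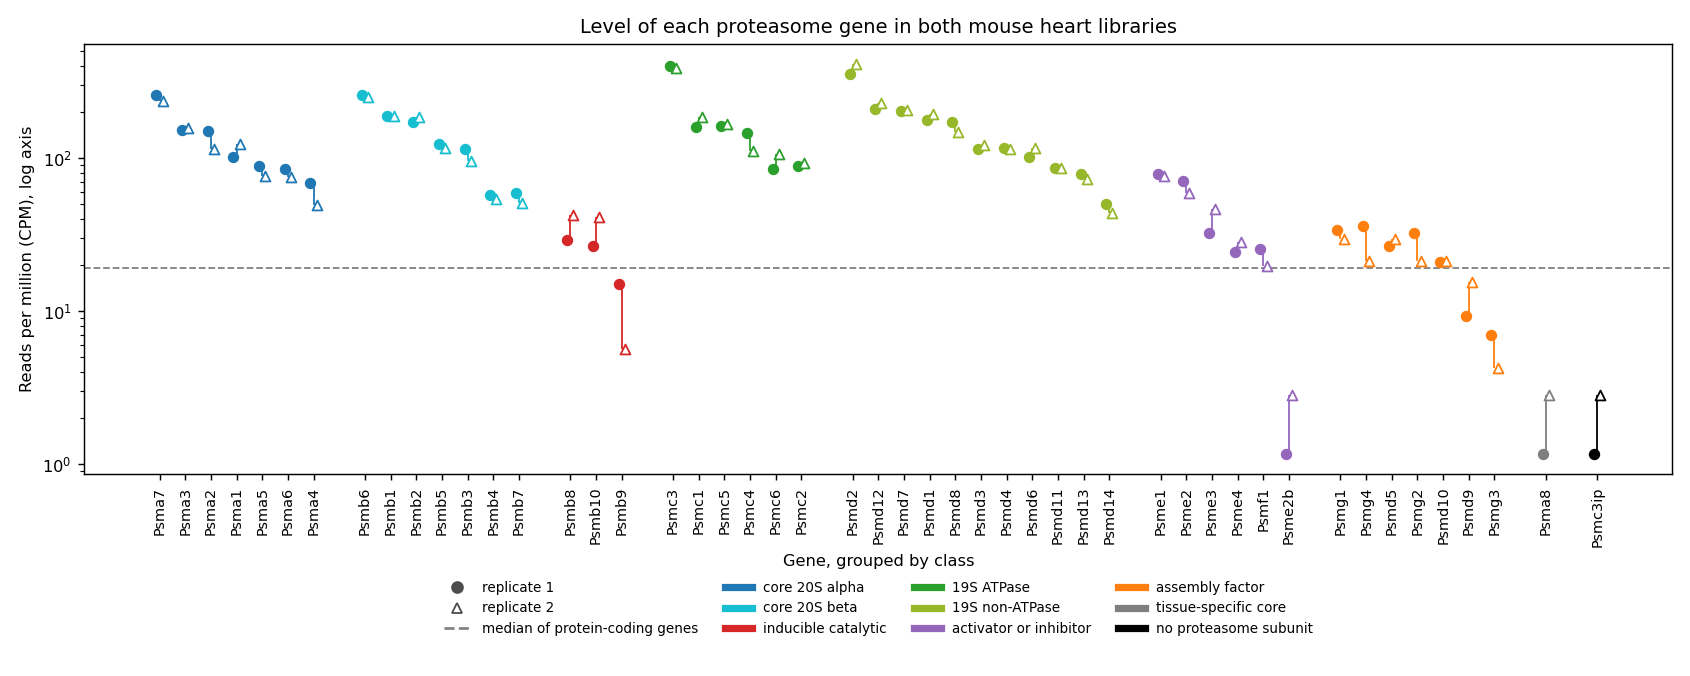
Level of each of the 49 genes in CPM on a log axis, with filled circles for replicate 1, open triangles for replicate 2, colours for the class and a dashed line at the median of all protein-coding genes. All core and 19S genes lie above the line in both libraries. Psmb8 and Psmb10 also lie above it, and Psmb9, Psmd9, Psmg3, Psma8, Psme2b and Psmc3ip lie below it.

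The outer ring of the core was led by Psma7 (alpha4; mm10, chr2:180036374-180042433, minus strand), with 223 and 168 reads, or 259.5 and 237 CPM. Its mean was 248.5 ± 15.7 CPM. Psma3 (alpha7) had 151 and 157 CPM, Psma2 (alpha2) 150.1 and 114 CPM and Psma1 (alpha6) 101 and 124 CPM. Psma5 (alpha5) followed with 88.5 and 76.3 CPM and Psma6 (alpha1) with 84.96 and 74.9 CPM, values that overlap between both genes. Psma4 (alpha3; chr9:54950790-54958030, plus strand) was the lowest, with 59 and 35 reads, or 68.7 and 49.5 CPM. Psma7 thus had 3.78 times the reads of Psma4 in replicate 1 (exact 95% interval 2.83 to 5.13) and 4.80 times in replicate 2 (3.32 to 7.12), although both proteins occupy 1 place in each outer ring. Per kilobase Psma7 also led at 320.4 CPM, but its mean model length is shortened by the incomplete models described below. Psma2 was then the lowest at 46.8 CPM per kilobase and Psma4 stood at 50.8.

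The inner ring showed the same kind of spread. Psmb6, the beta1 subunit that cuts after acidic residues (chr11:70525367-70527858, plus strand), had 222 and 177 reads (258 and 250.1 CPM). Psmb5, the beta5 subunit with chymotrypsin-like activity that proteasome inhibitors used as drugs bind, had 106 and 82 reads (123 and 116 CPM). Psmb7, the beta2 subunit with trypsin-like activity (chr2:38588036-38644087, minus strand), had 51 and 36 reads (59.4 and 50.9 CPM). The 3 cutting subunits therefore did not share a level: Psmb6 had 4.35 times the reads of Psmb7 in replicate 1 (3.20 to 6.02) and 4.92 times in replicate 2 (3.42 to 7.25). Per kilobase Psmb6 held 328.5 CPM, Psmb5 136 CPM and Psmb7 48.9 CPM, which is the same order. Among the beta subunits that do not cut, Psmb1 (beta6) had 187 and 188 CPM, Psmb2 (beta4) 171 and 185 CPM, Psmb3 (beta3) 114 and 96.1 CPM and Psmb4 (beta7) 57.0 and 53.7 CPM. Psmb4 and Psmb7 overlapped and were the lowest of the ring. Psma8, the testis partner of Psma7, had 1 and 2 reads, or 0.446% (0.0789 to 2.49%) and 1.18% (0.323 to 4.19%) of the reads of both genes.

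The inducible catalytic subunits were detected at low levels. Psmb8 (beta5i; chr17:34197721-34201454, plus strand) had 25 and 30 reads, or 29.1 and 42.4 CPM, and Psmb10 (beta2i; chr8:105935735-105938444, minus strand) had 23 and 29 reads, or 26.8 and 41.0 CPM. Psmb9 (beta1i; chr17:34181987-34187764, minus strand) had 13 and 4 reads, or 15.1 and 5.65 CPM. In replicate 2 this is close to the 4.24 CPM that a count of 0 allows. Psmb8 made up 19.1% (Wilson 95% interval 13.3 to 26.7%) and 26.8% (19.5 to 35.7%) of the reads of itself and Psmb5. Psmb10 made up 31.1% (21.7 to 42.3%) and 44.6% (33.2 to 56.7%) of itself and Psmb7. Psmb9 made up 5.53% (3.26 to 9.23%) and 2.21% (0.863 to 5.54%) of itself and Psmb6. In both libraries the share was lowest for the beta1 pair, with an interval that did not reach those of the other pairs, and the beta2 and beta5 intervals overlapped. Per kilobase the mean shares of both libraries were 22.9% for Psmb8, 38.45% for Psmb10 and 2.23% for Psmb9. Summed over the 3 pairs, the inducible genes held 61 and 63 reads against 379 and 295 reads of their constitutive partners, which is 13.9% (10.95 to 17.4%) and 17.6% (14.0 to 21.9%). Counted on annotated models alone, the Psmb8 share was 12.5% as the mean of both libraries, against 22.9 ± 5.45% on all models, because many Psmb8 reads lay on single-exon models.

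**Figure D2:**
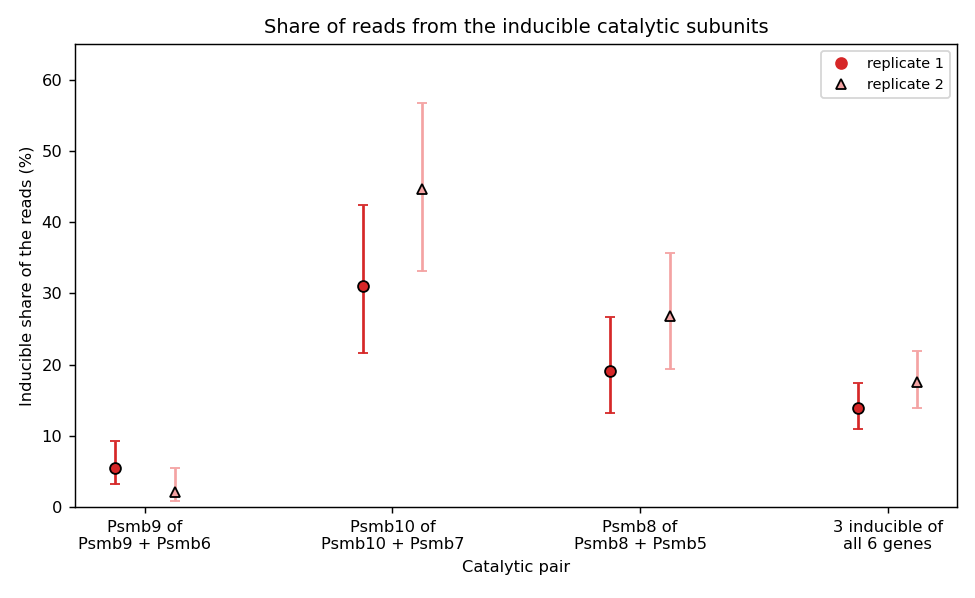
Reads of the inducible subunit as a percentage of itself and its constitutive partner for each catalytic pair and for the 3 pairs summed, in replicate 1 (circles) and replicate 2 (triangles), with Wilson 95% intervals as bars. The Psmb9 share lies at 5.53% and 2.21%, below the Psmb8 and Psmb10 shares in both libraries.

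Immune cells express the immunoproteasome, so their markers are given beside these values. Of 9 immune markers 7 had reads in both libraries, with a summed level of 554 and 420 CPM over the list. Lyz2 and Cd74, of macrophages and antigen-presenting cells, gave most of it, with 233 and 157 CPM and 176 and 138 CPM. Of the other markers in the list, Csf1r had 34 and 41 reads, C1qa 66 and 29, Adgre1 16 and 8 and Cd68 8 and 6. Ptprc of all leukocytes had 0 and 3 reads. Cd3e of T cells had no read in either library and Cd79a of B cells had 1 read in each. Over all models, the summed immune level was higher in replicate 1, while Psmb8 and Psmb10 were lower there and Psmb9 was higher. On annotated models alone Psmb8 had 15 and 11 reads, so it was not lower in replicate 1. Psmb10 then had 19 and 24 reads and Psmb9 12 and 3. None of the immune markers tested and none of these subunits was called between the libraries. All 6 cardiomyocyte markers were present, with Myh6, the main cardiac myosin of adult mice, at 30444 and 34817 CPM. None of these 6 was called at 2-fold either. Without a fold minimum, Myh6 was lower in replicate 1 (log2 ratio -0.194, adjusted p = 4.8e-48, exact binomial test). Myl2 was higher there (log2 ratio 0.282, adjusted p = 1.2e-07, same test). Endothelial markers summed to 209.5 and 239 CPM and fibroblast markers to 794 and 721 CPM. The part of these cell types in the immunoproteasome levels was not tested, and in bulk tissue fewer cells of a type and less RNA per cell cannot be told apart.

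Genes of antigen presentation spanned a wide range. Tap1 and Tap2, the peptide transporter whose genes neighbour Psmb8 and Psmb9 on chromosome 17, had 10.5 and 16.9 CPM and 46.6 and 42.4 CPM. The class I heavy chain H2-D1 had 374 and 411 CPM and the light chain B2m had 58.2 and 80.5 CPM. Irf1, an interferon-induced regulator, had 4 and 3 reads. Nlrc5, the activator of class I genes, had no read in either library.

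The 19S ATPases form the ring that unfolds substrates. Psmc3 (Rpt5; chr2:91054009-91066369, plus strand) had the highest mean CPM of the 49 genes, with 345 and 273 reads, or 401.5 and 386 CPM. In replicate 2 Psmd2 was higher, and per kilobase Psmb6 and Psma7 were higher. Psmc1 (Rpt2) had 161 and 185 CPM, Psmc5 (Rpt6) 162 and 167 CPM and Psmc4 (Rpt3) 145.5 and 112 CPM. Psmc6 (Rpt4), at 84.96 and 106 CPM, and Psmc2 (Rpt1), at 88.5 and 93.2 CPM, overlapped at the lower end. Psmc3 had 4.54 times the reads of Psmc2 in replicate 1 (3.53 to 5.90) and 4.14 times in replicate 2 (3.15 to 5.498). Per kilobase Psmc3 held 295 CPM, Psmc2 58.8 CPM and Psmc6, which was then the lowest, 43.3 CPM. The mean model length of Psmc3, 1333 bases against 1636 for Psmc3-202, is shortened by the single-exon models described below.

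Among the other cap subunits Psmd2 (Rpn1), a large scaffold of the base that receives ubiquitin shuttles (chr16:20651652-20663414, plus strand), had 305 and 293 reads, or 355 and 414 CPM. Its levels spanned those of Psmc3. On annotated models Psmd2 had 277 and 255 reads and Psmc3 had 248 and 220. Psmd1 (Rpn2), the other large scaffold, had 178 and 195 CPM and Psmd4 (Rpn10), a ubiquitin receptor, 116 and 114 CPM. The lid ran from Psmd12 (Rpn5), at 209.5 and 230.3 CPM, and Psmd7 (Rpn8), at 201 and 206 CPM, through Psmd8 (Rpn12), at 172 and 148 CPM. Psmd3 (Rpn3), Psmd6 (Rpn7), Psmd11 (Rpn6) and Psmd13 (Rpn9) had means of 118 ± 4.45, 109 ± 10.3, 86.2 ± 0.0425 and 76.3 ± 4.01 CPM. Psmd14 (Rpn11), the enzyme that removes ubiquitin at the cap (chr2:61711694-61800376, plus strand), was the lowest with 43 and 31 reads. Psmd2 had 7.09 times its reads in replicate 1 (5.14 to 10.003) and 9.45 times in replicate 2 (6.52 to 14.2), the widest range of the 4 core and cap classes. Per kilobase Psmd14 was also the lowest at 30.5 CPM, and Psmd2, with 135 CPM, was just above Psmd7 with 130 CPM. The order of the 31 core and cap genes was much alike in both libraries (Spearman's rho 0.962 across the 31 genes, which are no independent replicates).

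The activator genes split by partner. Psme1 and Psme2, the alpha and beta subunits of the interferon-inducible PA28 ring and near neighbours on chromosome 14 (Psme1 at chr14:55578123-55581529, plus strand), had 68 and 54 reads and 61 and 42 reads. Psme2 gave 47.3% (38.9 to 55.9%) and 43.8% (34.3 to 53.7%) of the pair's reads, intervals that include equal shares in both libraries. Psme3, the nuclear PA28 gamma, had 28 and 33 reads (32.6 and 46.6 CPM) and Psme4, the PA200 activator, 21 and 20 reads (24.4 and 28.3 CPM). Psmf1, the inhibitor PI31, had 22 and 14 reads (25.6 and 19.8 CPM). Psme2b (chr11:48945354-48946190, minus strand) had 1 and 2 reads. Since it is 99.4% identical to Psme2 over 794 bases, the split between both is uncertain. Per kilobase Psme1 and Psme2 led with 74.1 and 68.4 CPM, and Psme4 and Psmf1, whose transcripts are long, stood at 6.89 and 6.09 CPM.

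In CPM the median of the assembly factors, 23.98, was near that of all protein-coding genes, 19.2. Per kilobase it was higher, with 14.7 and 14.8 against 7.53 and 7.93. For the core, Psmg1 (PAC1; chr16:95979933-95990960, minus strand) had 29 and 21 reads (33.8 and 29.7 CPM), Psmg2 (PAC2), its binding partner, 28 and 15 reads and Psmg4 (PAC4) 31 and 15 reads. Psmg3 (PAC3), which pairs with Psmg4 (chr5:139823592-139826885, minus strand), had 6 and 3 reads (6.98 and 4.24 CPM), the lowest of the class. For the base of the cap, Psmd5 (S5b) had 23 and 21 reads, Psmd10 (gankyrin) 18 and 15 and Psmd9 (p27) 8 and 11. Per kilobase the order changed, with Psmg4 at 55.5 CPM above Psmg1 at 28.6 CPM, and Psmd9 the lowest at 5.14 CPM. Another core assembly factor, Pomp, whose symbol does not match, was higher in CPM than all 7, with 154 and 123 CPM.

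Proteasome-related genes with other symbols were detected as well. Reads in both libraries were found for 11 of them, with medians of 119 and 121.5 CPM. Paaf1, also in the list, had no read or no matching symbol, so the medians leave it out. Sem1, the smallest lid subunit, had 333 and 307 CPM, Adrm1 (Rpn13), a ubiquitin receptor, 142 and 121.5 CPM and Nfe2l1, the transcription factor that raises proteasome genes when activity is short, 309.6 and 360.3 CPM. Among 13 ubiquitin and shuttle genes, polyubiquitin Ubb had 1499 and 1427 CPM and the unfoldase Vcp 559 and 554 CPM.

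No proteasome gene passed the test between the libraries. With at least 10 reads in total, 45 of the 49 genes were tested with a two-sided exact binomial test against the library totals, adjusted by Benjamini-Hochberg over 9334 genes. Psma8, Psme2b, Psmg3 and Psmc3ip were too low. At an adjusted p below 0.05 and 2-fold, 0 of 45 were called, against 0.321% of all genes tested. Without a fold minimum it was also 0, against 1.15%, and at an unadjusted p below 0.05 again 0, against 8.53%. The edgeR exact test with a preset variation of 0.1 or 0.2 called 0 as well, against only 12 and 4 of the 9334 genes. Of the other genes of the pathway tested, 8 of antigen presentation, 11 with other symbols and 13 of ubiquitin and its shuttles, 0 were called in each list, against the same 0.321%. With so few calls over all genes, 0 calls in sets this small say little about their genes. These tests compare the reads of 2 libraries, not conditions. In replicate 1, 23 genes were higher (51.1%, against 44.9% of all genes tested) and 22 were lower. Within 1.5-fold lay 40 of the 45 (88.9%, against 77.7%). The 5 beyond it were all low genes: Psmb9, Psmg4 and Psmg2, higher in replicate 1, and Psmd9 and Psmb10, higher in replicate 2.

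The widest ratio was that of Psmb9, 2.47-fold higher in replicate 1 with an exact 95% interval of 0.827 to 11.3 and an adjusted p of 0.673 (exact binomial test). Psmb10 had a ratio of 0.656 (0.361 to 1.17, adjusted p = 0.748 by the same exact test) and Psmb8 one of 0.689 (0.387 to 1.21, adjusted p = 0.812, exact test). The lowest adjusted p was 0.626, that of Psma2 (exact test, log2 ratio 0.39). The median log2 ratio was 0.02 over the 45 genes and -0.05 over all genes tested.

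**Figure D3:**
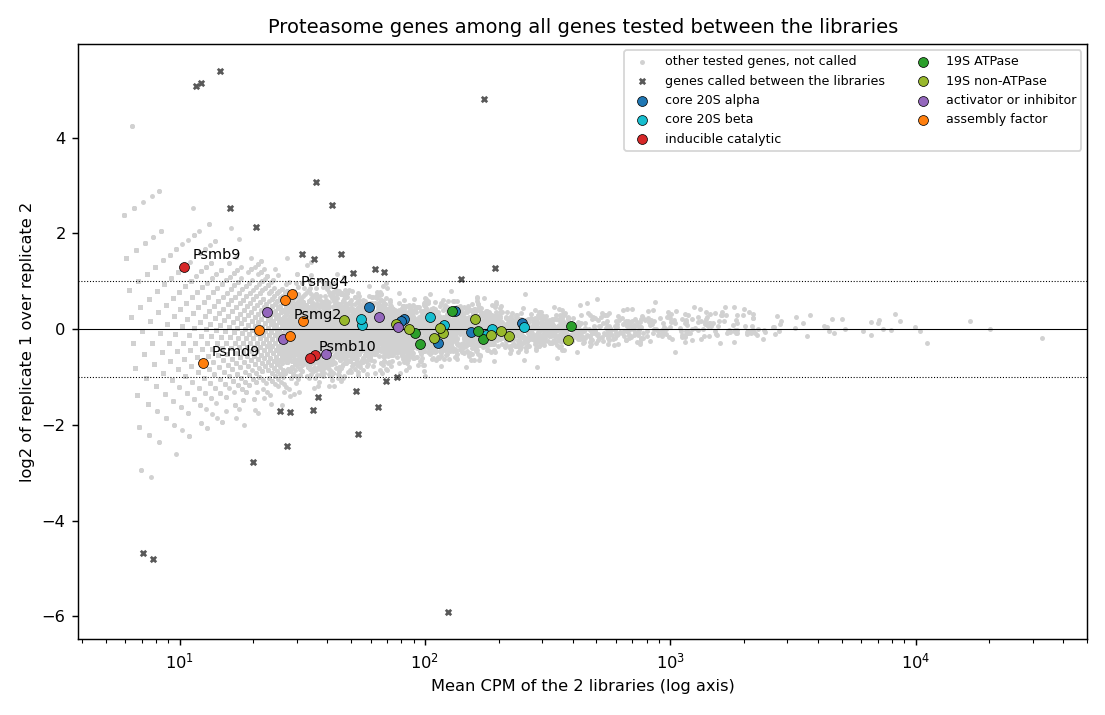
Log2 ratio of replicate 1 over replicate 2 against the mean CPM (log axis) for all 9334 genes tested, in grey with called genes as crosses, and the 45 proteasome genes coloured by class; dotted lines mark 2-fold. The proteasome genes lie inside the grey cloud, and among them Psmb9 alone passes the 2-fold line.

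Most proteasome genes used a single annotated isoform. Of 34 genes whose annotated models held 20 or more reads per library, 1 had a second isoform at 20% or more in both libraries (10.9% of all genes of that depth did). This gene was Psmd4, whose isoforms were nearly even. Psmd4-201 had 39 and 34 reads, or 47.0% (36.6 to 57.6%) and 47.9% (36.7 to 59.3%), and Psmd4-202 had 44 and 37 reads, or 53.0% and 52.1%. Both have 10 exons, and they differ inside the coding sequence by 9 bases (mm10, chr3:95033909-95033917, minus strand). These bases end an exon of Psmd4-201, and Psmd4-202 uses a splice donor just before them. Their coding lengths are 1140 and 1131 bases, so the reading frame is kept. The annotated transcripts are 1276 and 1332 bases long, so they also differ in length outside the coding sequence. The junctions are shown from the GENCODE M21 transcripts with those 9 bases in capitals, to show how small the coding difference is.
Psmd4-201: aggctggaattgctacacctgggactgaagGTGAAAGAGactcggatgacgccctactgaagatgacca
Psmd4-202: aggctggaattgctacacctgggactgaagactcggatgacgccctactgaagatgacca

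At a share of 10% in both libraries, Psmb6 and Psmd11 joined. Psmb6-202, a retained-intron model of 2 exons without an annotated coding part, had 46 and 32 reads (21.5% and 18.6%) beside Psmb6-201 with 168 and 140. It begins 107 bases before an internal exon of Psmb6-201 (chr11:70527072-70527178, plus strand). Psmd11-214 had 13 and 12 reads (18.8% and 21.4%) beside Psmd11-201 with 56 and 44. Both hold the same coding length of 1269 bases. After it Psmd11-214 runs on for 315 bases of the last intron and beyond (chr11:80471595-80471909, plus strand), where Psmd11-201 splices to a last exon of 1539 bases, so the difference lies in the 3′ UTR. Psmg4, with only 31 and 15 annotated reads, was below the depth set. Its 2-exon Psmg4-201 had 16 and 6 reads and its 3-exon Psmg4-202 had 15 and 9, which puts Psmg4-202 at 48.4% (32.0 to 65.2%) and 60.0% (35.7 to 80.2%). The middle exon of 76 bases (chr13:34166061-34166136, plus strand) is coding and not a multiple of 3, and the annotated coding length is 372 bases with it and 249 without. It is shown in capitals with 20 bases of each neighbouring exon, from GENCODE M21, since its presence splits the reads of this assembly factor.
Psmg4-202: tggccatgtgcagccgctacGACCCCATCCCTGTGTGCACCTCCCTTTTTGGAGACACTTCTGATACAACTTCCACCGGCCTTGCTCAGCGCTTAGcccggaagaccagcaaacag
Psmg4-201: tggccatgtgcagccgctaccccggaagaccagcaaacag

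The choice of isoform was tested between the libraries in the 4 genes with enough reads off the leading model: Psma3, Psmb6, Psmd11 and Psmd4. None was called by Fisher's exact test (0 of 4, against 0.0964% of 1037 genes tested), and none had an unadjusted p below 0.05. For Psmb6-201 the shares were 78.5% and 81.4%, with an adjusted p of 1.000 by Fisher's exact test.

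**Figure D4:**
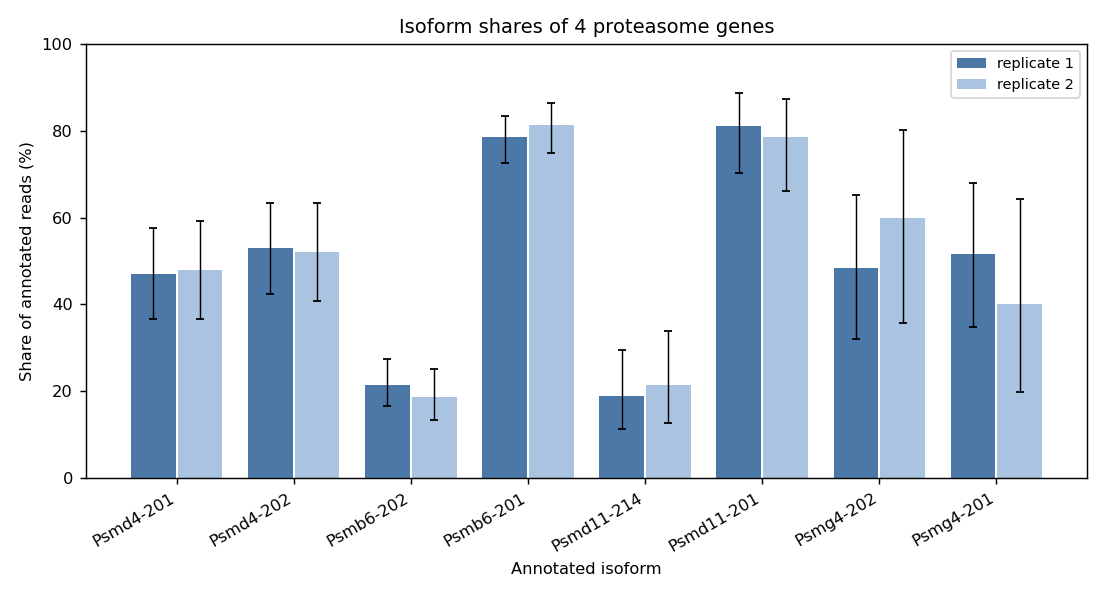
Share of the annotated reads of Psmd4, Psmb6, Psmd11 and Psmg4 that fell on each isoform, in percent, with dark bars for replicate 1, pale bars for replicate 2 and Wilson 95% intervals. The Psmd4 isoforms lie near even in both libraries (47.0% and 47.9% for Psmd4-201), and the widest intervals are those of Psmg4.

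Most reads of the 49 genes matched an annotated transcript over all its splice sites. This share was 86.2% (Wilson 95% interval 85.2 to 87.2%) and 86.5% (85.3 to 87.5%), against 75.9% and 75.6% for all protein-coding genes. Among 39 genes with at least 20 reads in each library, 17 (43.6%) had 90% or more on annotated models in both libraries, against 25.7% of protein-coding genes of that depth. New combinations of known splice sites made up 1.04% and 1.12% of the reads, against 4.98% and 5.54% for all protein-coding genes. Models that lack exons at the 5′ end made up 6.79% and 7.06%, against 7.72% and 7.77%. Only 2 of the 39 (5.13%, against 15.9%) were under 50% in both libraries, and these were Psmc2 and Psme4.

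**Figure D5:**
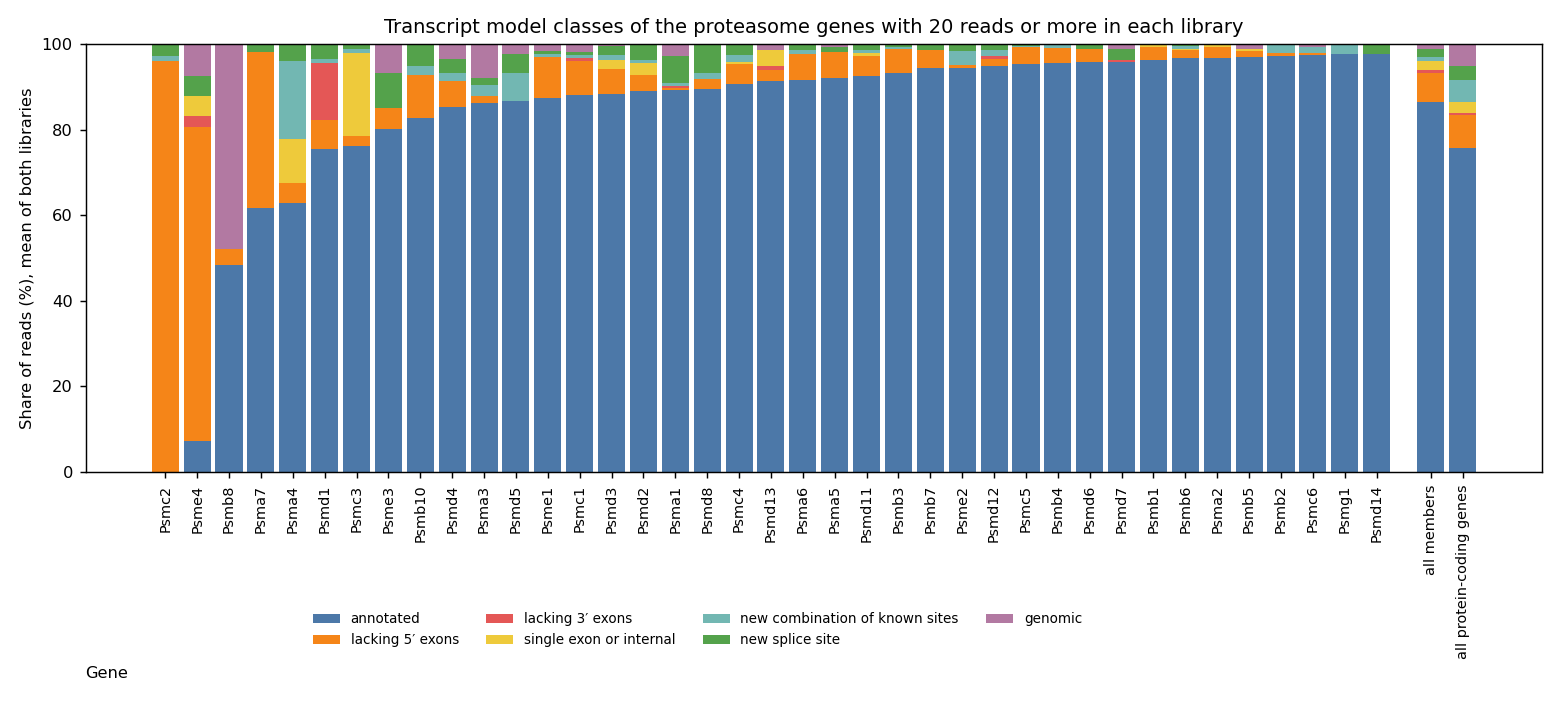
Share of reads in each class of transcript model, as the mean of both libraries in percent, for the 39 proteasome genes with 20 reads or more in each library, ordered by the annotated share, and for all members and all protein-coding genes at the right. Psmc2 and Psme4 at the left consist mostly of models lacking 5′ exons, and Psmb8 holds a large genomic share.

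Psmc2 had none of its 76 and 66 reads on an annotated model. A single model of 12 exons took 70 reads (92.1%) and 63 reads (95.5%). It has the intron chain of the 13-exon Psmc2-201 without its first intron, and begins at chr5:21786670 in replicate 1 and chr5:21786650 in replicate 2. The start in replicate 2 is the first base of the second annotated exon. The annotated start lies upstream at chr5:21785283, and the first exon (chr5:21785283-21785517, plus strand) is wholly untranslated. The annotated coding sequence starts at chr5:21786689, inside the 12-exon model. RefSeq also lists a start at chr5:21786747 in this second exon. It lies 77 and 97 bases downstream of the starts of the 12-exon model in replicates 1 and 2, and downstream of the annotated coding start. The first 30 bases of the annotated first exon (outer) and of the deposited model of replicate 2 (inner) are shown in capitals. Each follows the 100 bases before it, from RefSeq on GRCm38.p6, plus strand. The model of replicate 1 begins within the inner capitals. The 100 bases before these capitals belong to the first intron of Psmc2-201 and end in ag, the letters that close most introns. The start of a model does not show where its single reads began, so the inner start is no mapped start of transcription. The regions shown span chr5:21785183-21785312 and chr5:21786550-21786679.
Psmc2 outer start: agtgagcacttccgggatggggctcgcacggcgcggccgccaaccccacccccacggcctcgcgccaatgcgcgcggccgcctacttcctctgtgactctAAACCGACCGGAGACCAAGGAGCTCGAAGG
Psmc2 inner start: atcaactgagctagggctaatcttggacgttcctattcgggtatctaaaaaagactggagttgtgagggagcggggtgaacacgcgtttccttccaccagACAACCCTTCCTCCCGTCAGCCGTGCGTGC

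Psme4 encodes the longest transcript of the group, Psme4-201, with 47 exons and 6491 bases. Of its 21 and 20 reads, 12 and 18 lay on models lacking 5′ exons, and the annotated share was 14.3% and 0%. A read lay on a model with a median of 29 and 33 exons, and 6 and 8 reads were on models of 40 exons or more. The most used model shared by both libraries had 41 exons and 5475 bases, with 2 and 7 reads. Reads of this gene thus often ended before its 5′ end, and the cause was not tested.

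The other unannotated spliced models with the most reads in both libraries were those of Psma7, Psmd1, Psmc1 and Psmd8. In Psma7 a model of 4 exons and 506 bases took 88 reads (39.5%) and 55 reads (32.7%). It begins at chr2:180038187 on the minus strand, in both libraries, and lacks the first 3 of the 7 exons of Psma7-201. This coordinate is the first base of exon 4 of Psma7-201. A model gives the same start and end for all its reads. Equal coordinates in both libraries therefore do not show where single reads began or ended. In Psmd1 a 22-exon model with 12 and 21 reads lacks the last 3 of 25 exons and ends at chr1:86132749 in both libraries, within the exon at chr1:86132714-86132800. The 20 bases of Psmd1-201 after this end hold 18 A. In Psmc1 a 10-exon model with 8 and 9 reads lacks the first exon of Psmc1-201 (chr12:100110154-100110211, plus strand), which holds 3 coding bases.

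Psmd8, the lid subunit Rpn12, gave the most used model with a new splice site. It had 5 exons and 1110 bases, with 8 reads (5.41%) and 8 reads (7.62%), beside 131 and 95 reads of the 7-exon Psmd8-202. It joins the first exon to a site 34 bases into the fourth exon, and so lacks exons 2 and 3 (chr7:29179143-29179215 and chr7:29178919-29179021, minus strand) and chr7:29177198-29177231. In all 210 coding bases are absent, a multiple of 3. The junctions are shown with the fourth exon from the new site in capitals. The stretch that it leaves out ends in ag, the letters that close most introns.
Psmd8-202: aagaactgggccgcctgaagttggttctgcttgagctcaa
Psmd8 shared model: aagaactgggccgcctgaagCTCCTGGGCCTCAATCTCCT
Psmd8 exon 4 site: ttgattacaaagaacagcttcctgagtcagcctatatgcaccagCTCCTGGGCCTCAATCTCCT

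A Psma4 model, described after its values were seen, came next with 8 reads (13.6%) and 6 reads (17.1%). It adds to Psma4-201 an exon of 85 bases (chr9:54951344-54951428, plus strand) that lies before the annotated coding start at chr9:54952106 and is also part of the annotated Psma4-207. In all, 11 intron chains of unannotated combinations or new sites were shared by both libraries, of 89 in replicate 1 and 80 in replicate 2. Single-exon models took large shares in a few genes. In Psmc3 they held 82 and 42 reads (23.8% and 15.4%), nearly all on a model of the last exon (chr2:91059254-91059432, plus strand). In Psmb8 they held 9 and 18 reads (36.0% and 60.0%), on models within the last exon (chr17:34201178-34201454, plus strand). Both begin at chr17:34201266, the last base of the annotated coding sequence, and are 160 and 185 bases long. Here too the start is that of the model, not of single reads. These reads count for the level of the gene but not for its isoforms.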

How the data were processed

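The authors deposited read counts per transcript model for each library, whole numbers from 1 up that were not normalized, per the file headers. Reads were aligned to mm10, and TALON added models to the GENCODE M21 annotation, per the text and headers of the files. Aligner, versions and filters are not given in the sources used here. Model lengths, exon numbers and coordinates are also theirs, per the file headers. Here counts were summed per gene over its models, without spike-ins, and scaled to CPM on annotated genes. Gene coordinates are those of GENCODE M21. The members, lists and tests were chosen with earlier results of these data known.

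Genes with 10 or more reads were tested between the libraries by an exact conditional binomial test (SciPy 1.17.1, Python 3.11.15) and called where the adjusted p was below 0.05 and the ratio 2-fold or more. Folds in the text have 0.5 reads added to each count. With 1 group of 2 libraries no residual degrees of freedom remain for edgeR's quasi-likelihood test, so the exact test of edgeR 4.0.16 with preset variation was an alternative. Normalization by edgeR TMM and DESeq2 1.42.0, read minimums, annotated models alone, length scaling, isoform thresholds, each library alone and added reads of near-identical copies (95% identity over 80% of the length, BLAST 2.17.0) were the others, the last chosen after seeing the data. Isoform use was tested with Fisher's exact test over genes with 20 annotated reads in each library and a leading isoform below 95%. Unannotated spliced models were matched by intron chain. Described in full were the highest and lowest gene of each class, genes with more than 1 major isoform, genes under 50% on annotated models and the 5 shared models with most reads. The tests were tried on simulated data. Promoter sequences come from RefSeq (GRCm38.p6), and 41 of the 49 genes matched its table. Protein sequences were not used here.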

Additional observations from a re-analysis of the deposited data

Results flagged for a closer look

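An unannotated model on the strand opposite to Psme4 held 7 reads in replicate 1 and 7 reads in replicate 2, at chr11:30798598-30798741 (mm10) inside the gene in replicate 1. It drew attention because it lies outside the counts of the 49 genes and is above the 3 reads that a count of 0 allows. Psme4 itself had 21 and 20 reads. All unannotated antisense models within Psme4 together held 12 and 16 reads, and those within Psmd11, the next gene by this measure, 7 and 9 reads.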

How the results depend on the processing

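No member was called between the libraries under any of the 9 alternatives, while over all genes the count of 30 became 15 on annotated models, 107 without the fold minimum, and 12 and 4 with edgeR's exact test at variation 0.1 and 0.2. TMM and DESeq2 scaling shifted log2 ratios by 0.04 and 0.08. Of 74 alternative values, 58 stayed within their limits and 16 moved; none reversed. Per kilobase, the class medians became 70.2 (alpha), 133 (beta), 101 (ATPase), 79.1 (other cap), 11.4 (activator or inhibitor) and 14.7 CPM (assembly). On annotated models alone they became 132, 153, 176 and 139 CPM for alpha, beta, ATPase and other cap genes and 21.8 CPM for the inducible subunits, and the Psmb8 share of its pair 12.5%. Genes with more than 1 major isoform numbered 3 at a share of 10%, and from 2 to 3 when 1 library was left out: 2 without replicate 1 (Psmd4, Psmd11) and 3 without replicate 2 (Psmd4, Psmb6, Psmg4). Incomplete matches added, the share on annotated models was 95.9%. No paired analysis was possible because there is only 1 group. Depth limits genes under about 10 reads, such as Psmb9 in replicate 2, Psmg3 and Psma8.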

Other observations

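The promoters of the proteasome genes were searched for TGACNNNGC, the letters shared by binding sites of Nfe2l1 and its relatives, on both strands and from 250 bases before to 50 after the RefSeq start. Of 44 promoters of 41 genes, 6 held it (13.6%), against 12.4% of 32851 promoters of all genes. They were those of Psmb5, Psmb6, Psmc6, Psmd12, Psmd9 and Psme4. Among core and cap genes the count was 4 of 27 promoters, and among the inducible subunits 0 of 3. The share is near that of all promoters, a match is not a bound site, and no match says only that these letters are not in this window.

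Ecpas, which encodes a scaffold that holds core and cap together, was outside the symbol pattern and had 97 and 109 reads, with 1.03% of its reads on annotated models in replicate 1. Processed pseudogenes near-identical to members drew few reads: Gm13835, identical to Psma3 over 685 bases, had 4 and 0 reads.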
